A study of Homo sapiens with 4 samples.

Results

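The insulin-like growth factor (IGF) system was examined through 10 genes in human fibroblasts with induced oncogenic RAS. They were the binding proteins IGFBP2, IGFBP3, IGFBP4, IGFBP5, IGFBP6 and IGFBP7, the receptors IGF1R and IGF2R, the ligand IGF2 and the protease gene PAPPA. They were chosen by name as genes of this family, with earlier results of these data known. All 10 were present among the 12033 genes with values. The cells were BJ-indRASG12V cells, a line of BJ fibroblasts immortalized with hTERT whose oncogenic RAS is induced by 4-hydroxytamoxifen (4-OHT), which drives the cells into oncogene-induced senescence (OIS). All 4 cell populations carried the inducible RAS and received 4-OHT over 14 days. They differed in the CRISPR vector: sgRNA-AP1-69 and sgRNA-AP1-71 both direct Cas9 to the AP-1 site of the enhancer EnhAP1-OIS1, sgRNA-FOXF1 directs it to the FOXF1 gene, and sgRNA-NT is a non-targeting control. Polyadenylated RNA of 1 library for each of these 4 conditions was sequenced, so no value has a replicate error, no p-value is given, and the comparisons below set single libraries side by side. Cells edited at the enhancer hold a mixture of small insertions and deletions, according to the study, and are not a single clone. The study also reports that cells with each targeting vector bypassed OIS, with less senescence staining and more proliferation than sgRNA-NT cells. A ratio to sgRNA-NT therefore sets cells with a bypass against senescent cells, and what the bypass contributes was not tested.

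IGFs are small secreted hormones that signal growth and survival through the tyrosine kinase IGF1R. IGF2R, the cation-independent mannose 6-phosphate receptor, does not signal in this way but takes up IGF2 and carries lysosomal enzymes. In the fluid around cells most IGF is held by IGFBPs, which keep it from its receptor until they are cut by proteases such as pappalysin (PAPP-A, the product of PAPPA), and several IGFBPs are known as components of the secretion of senescent cells. IGFBP7 binds IGF only weakly and is often counted as a related protein rather than as a classical member.

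Levels are given as reads per kilobase of transcript, scaled to library size (RPKM) and quantile-normalized over the 4 libraries by the authors, with a floor of 1 RPKM. Without read counts, library depth is unknown. Ratios to sgRNA-NT were taken on the log2 scale with no pseudocount. They were compared for the 7596 genes that averaged 2 RPKM or more over the libraries. Where 3 values or ratios are given for the targeted libraries together, they stand for sgRNA-AP1-69, then sgRNA-AP1-71, then sgRNA-FOXF1. A gene was called higher or lower at a 2-fold difference, a log2 ratio of 1. The only measure of spread is the difference between both enhancer guides, which are separate constructs against the same site: sgRNA-AP1-71 and sgRNA-AP1-69 differed by a median of 0.16 on the log2 scale over these genes, and 95% of genes differed by at most 0.58. That upper limit was 0.55 for genes of 5 to 20 RPKM, 0.49 for genes of 20 to 100 RPKM and 0.64 for genes over 100 RPKM. It holds no variation of the sgRNA-NT library itself, which enters every ratio. Of the 10 genes, 8 were compared, each at 3.0 RPKM or more in every library, whereas IGF2 and IGF1R lay too close to the floor.

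The targeted gene FOXF1 was at 11.1 RPKM with sgRNA-AP1-69, 7.8 RPKM with sgRNA-AP1-71 and, with sgRNA-FOXF1, 25 RPKM, against 29.6 RPKM with sgRNA-NT. Edited transcripts still yield reads of the gene, so the value with sgRNA-FOXF1 does not measure the protein. HRAS, whose reads include those of any HRAS transgene, had log2 ratios of -0.89, -0.96 and -0.23 in the targeted libraries, and the cell cycle inhibitor gene CDKN1A had -0.23, -0.52 and -0.37. Transcripts of the mitochondrial genome had median log2 ratios of -1.02, -1.54 and -0.77 over 13 genes. All 11 fibroblast markers on a fixed list were among the genes compared, with a summed level of 5233.7, 5405.8 and 5174.7 RPKM in the targeted libraries and 3713.7 RPKM with sgRNA-NT, although DCN was at the floor with sgRNA-NT. VIM and S100A4 made up most of that sum, and the other 9 markers summed to 535.4, 465.4 and 826.4 RPKM in the targeted libraries, against 771.5 RPKM with sgRNA-NT. Among these, FN1 had log2 ratios of -1.49, -2.19 and -1.08, PDGFRA of -1.19, -0.83 and -1.35, and COL1A1 of -1.17, -1.50 and -0.06. Others went the other way: LUM had 1.85, 1.78 and 2.51, DCN 0.49, 1.43 and 1.77, and COL3A1 0.32, 0.36 and 0.86. The markers thus had no common direction. Of 19 markers of epithelial, endothelial, leukocyte and melanocyte cells, 2 were analysed here: CD14 was at 7.9, 8.5 and 6.0 RPKM in the targeted libraries and 9.8 RPKM with sgRNA-NT, and TIE1 was at 1.2, 2.4 and 3.3 RPKM against 1.0 RPKM. What these differences contribute to the IGF system was not tested. In bulk RNA, fewer cells that express a gene cannot be told apart from less of its RNA per cell.

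IGFBP4 was the most abundant of the 10 genes in every library and IGF2 the least abundant, level with IGF1R at the floor with sgRNA-AP1-71. IGFBP4 (ENSG00000141753), which encodes the main substrate of PAPP-A, was at 900.7 RPKM with sgRNA-AP1-69, 818.3 RPKM with sgRNA-AP1-71 and, with sgRNA-FOXF1, 1396.1 RPKM, against 1073.3 RPKM with sgRNA-NT. It stood at the 99.7 or 99.8 percentile of all 12033 genes in every library. IGFBP7 came next with sgRNA-NT, 2.85-fold below IGFBP4 and 3.42-fold above IGFBP6. With both enhancer guides IGFBP7 and IGFBP6 were nearly level, 1.07-fold apart with sgRNA-AP1-69 and 1.03-fold apart with sgRNA-AP1-71, which is less than the spread between the guides. With sgRNA-FOXF1 the order was IGFBP4, IGFBP5, IGFBP6 and IGFBP7. IGFBP5 exceeded IGFBP6 there by 1.07-fold, IGFBP6 exceeded IGFBP7 by 1.3-fold and IGFBP5 exceeded IGFBP7 by 1.4-fold, all within that spread, so the order of these 3 genes is not resolved. In the other libraries IGFBP6 exceeded IGFBP5 by 1.34-fold to 1.55-fold, within the spread as well. That spread compares the same gene between libraries and serves here only as a yardstick. The error of a ratio between genes within a library was not measured. At the lower end, IGFBP3 and PAPPA were within 1.09-fold with sgRNA-NT and 1.04-fold with sgRNA-AP1-69, and their order is not resolved in those libraries. PAPPA and IGFBP2 were within 1.06-fold with sgRNA-AP1-69, so the order of these 3 genes is open there.

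**Figure D1:**
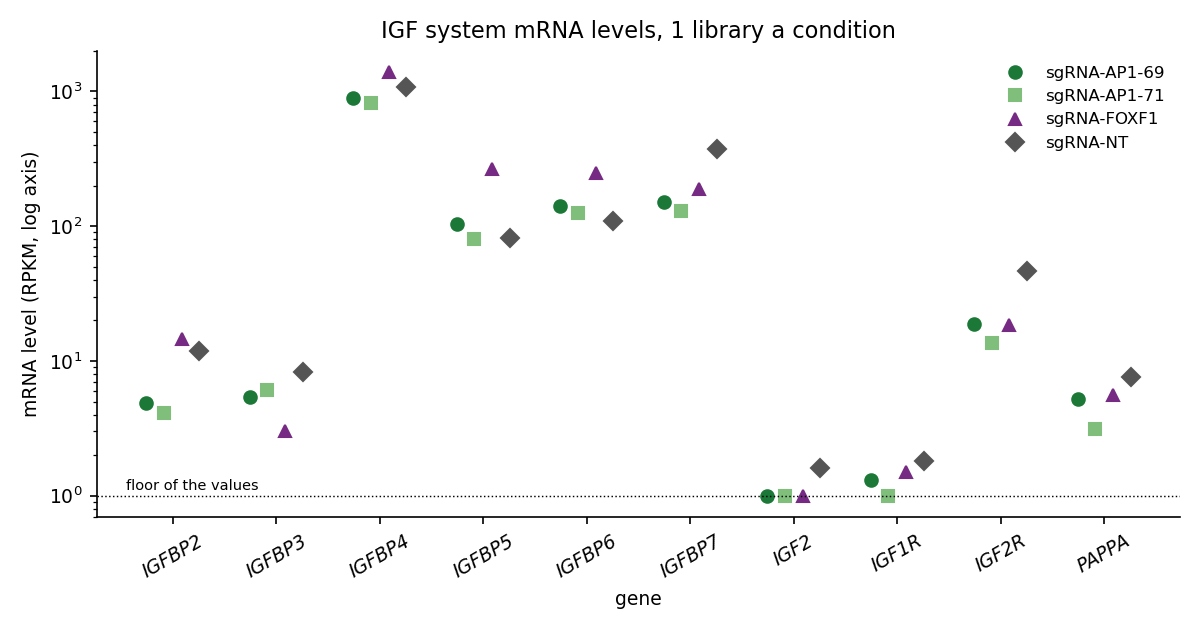
mRNA level of the 10 genes (RPKM, log axis) in each library, with 1 point for each of the 4 libraries and a dotted line at the floor of 1 RPKM. IGFBP4 lay between 818.3 and 1396.1 RPKM, while IGF2 was at the floor in the 3 targeted libraries.

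Against sgRNA-NT, 3 of the 8 genes compared were at least 2-fold lower with sgRNA-AP1-69 (IGFBP2, IGFBP7 and IGF2R), beside 3.3% of all genes compared, and 4 were lower with sgRNA-AP1-71 (the same 3 and PAPPA), beside 6.38%. None was at least 2-fold higher with either guide (1.34% and 3.8% of all genes), with both guides (1.07%) or in all 3 targeted libraries (0.895%). Between the guides, sgRNA-AP1-71 over sgRNA-AP1-69, none was at least 2-fold lower (0.197% of all genes) or higher (0.303%). The 3 genes lower with both guides compare with 2.98% of all genes. With sgRNA-FOXF1, 2 genes were at least 2-fold lower (IGFBP3 and IGF2R, beside 4.96% of all genes) and 2 at least 2-fold higher (IGFBP5 and IGFBP6, beside 3.2%). IGF2R alone was at least 2-fold lower in all 3 targeted libraries (1.71% of all genes). The median log2 ratio of the 8 genes was -0.58, -0.87 and -0.08 in the targeted libraries, where the medians over all genes compared were 0.07, 0.08 and 0.05. All 3 ratios share the sgRNA-NT library, so their resemblance is not independent evidence.

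**Figure D2:**
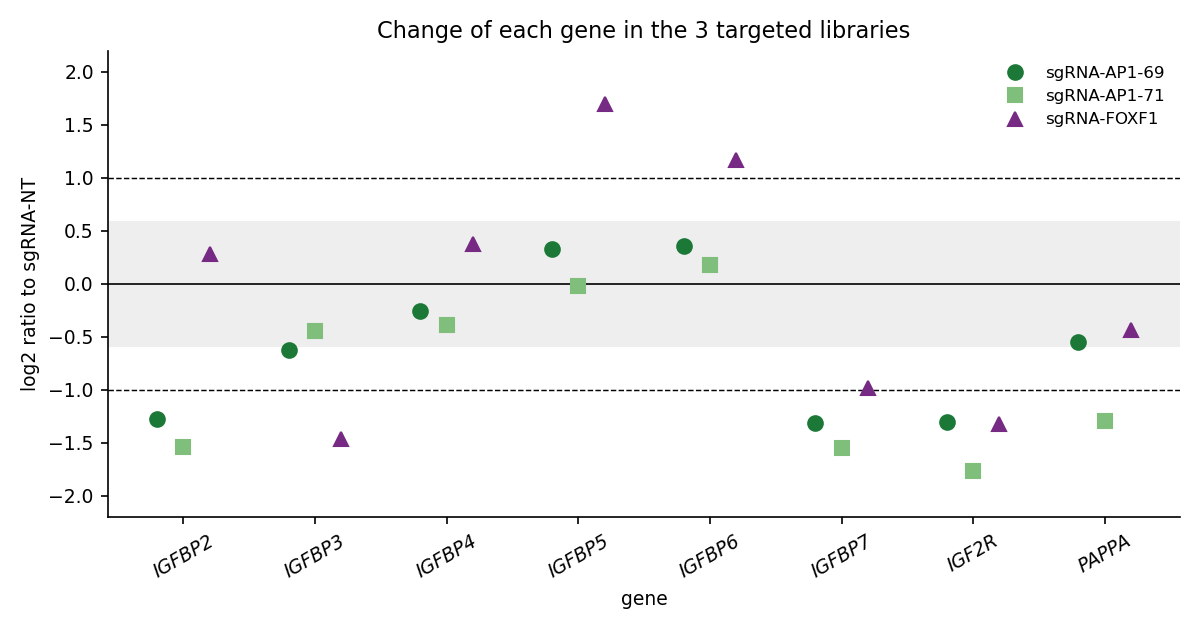
Log2 ratio to sgRNA-NT of the 8 genes compared, with 1 point for each of the 3 targeted libraries. Dashed lines mark a 2-fold difference and the grey band the range of ±0.58 that holds 95% of differences between both enhancer guides; IGFBP5 and IGFBP6 lie above the upper line with sgRNA-FOXF1 only.

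Among the receptors, IGF2R (ENSG00000197081, chr6:160390114-160534539 of GRCh37, plus strand, 48 exons) was at 18.8 RPKM with sgRNA-AP1-69, 13.6 RPKM with sgRNA-AP1-71 and, with sgRNA-FOXF1, 18.5 RPKM, against 46.3 RPKM with sgRNA-NT. Every targeted library was thus below the control, by 2.46-fold, 3.4-fold and 2.5-fold. These differences exceed the spread between the guides at this level. IGF2R has a very long transcript, and after subtraction of a trend with transcript length, described below, its log2 ratios were -0.66, -0.93 and -0.61 in place of -1.30, -1.77 and -1.32, so that no library was past 2-fold. IGF1R (ENSG00000140443), the signalling receptor, was at 1.3, 1.0 and 1.5 RPKM in the targeted libraries and 1.8 RPKM with sgRNA-NT. It lay at the floor with sgRNA-AP1-71, at least 1.8-fold lower there, and a 2-fold fall from 1.8 RPKM could not be seen above the floor. Within a library IGF2R was 14.5, 13.6 and 12.3 times IGF1R in the targeted libraries, and 25.7 times with sgRNA-NT; the value for sgRNA-AP1-71 is a lower bound since IGF1R was at the floor. The insulin receptor gene INSR, whose product pairs with IGF1R in hybrid receptors, was at the floor in all 4 libraries. The ligand gene IGF2 (ENSG00000167244) was at the floor in all 3 targeted libraries and at 1.6 RPKM with sgRNA-NT, at least 1.6-fold lower. IGF2 overlaps the read-through gene INS-IGF2 on its own strand and IGF2-AS on the other, and how reads common to them were assigned is not given in the sources used here. IGF1, the other ligand, was not analysed here.

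IGFBP7 (ENSG00000163453, chr4:57896939-57976551, minus strand), a secreted protein described in senescence of melanocytes with oncogenic BRAF, was at 151.4 RPKM with sgRNA-AP1-69, 128.7 RPKM with sgRNA-AP1-71 and, with sgRNA-FOXF1, 190.3 RPKM, against 376.2 RPKM with sgRNA-NT. The control library was the highest, and the targeted libraries did not reach it. The log2 ratios were -1.31, -1.55 and -0.98, beyond the spread between the guides, and the fold with sgRNA-FOXF1 (1.98) was just short of 2. The mean of the ratios over both enhancer guides was -1.43 (SD 0.17, n = 2 guides). This SD, like those given for other genes, describes 2 separate constructs with a shared control library and is not a replicate error. IGFBP7 overlaps POLR2B and IGFBP7-AS1, both on the other strand. The methods of the study name a strand-specific kit and the labels another one, so reads of these partners may not have been kept apart.

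Of 5095 genes that averaged 5 RPKM or more, the one with the log2 ratios nearest to those of IGFBP7 over the 3 targeted libraries was FBLN1, which encodes the matrix protein fibulin-1 (Euclidean distance 0.077). It was at 62.9, 50.2 and 78.5 RPKM in the targeted libraries, against 150.8 RPKM with sgRNA-NT. The next were ITPRIPL2 (distance 0.218) and TIMP2, an inhibitor of matrix metalloproteinases (distance 0.225). These distances rest on 3 ratios that share a control and describe only a likeness.

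IGFBP2 (ENSG00000115457), a circulating IGF-binding protein, was lower by 2-fold or more with each enhancer guide and not with sgRNA-FOXF1. It was at 4.9 RPKM with sgRNA-AP1-69, 4.1 RPKM with sgRNA-AP1-71 and, with sgRNA-FOXF1, 14.5 RPKM, against 11.9 RPKM with sgRNA-NT. The guides gave log2 ratios of -1.28 and -1.54 (mean -1.41, SD 0.18, n = 2 guides), whereas the ratio with sgRNA-FOXF1 was 0.29, within the spread between the guides. Set against the mean of the enhancer guides on the log2 scale, without use of the sgRNA-NT library, IGFBP2 was 3.24-fold higher with sgRNA-FOXF1 and ranked 5 from the highest of the 7596 genes. In this comparison 2 of the 8 genes, IGFBP2 and IGFBP5, were at least 2-fold higher, beside 1.16% of all genes, and none was at least 2-fold lower, beside 0.461%. At 1.5-fold, IGFBP4 and IGFBP6 joined the higher genes (4 of 8, beside 5.86% of all genes) and IGFBP3 was lower (1 of 8, beside 3.54%).

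IGFBP2 and IGFBP5 are neighbours on chromosome 2 of GRCh37. IGFBP2 spans 217497551 to 217529159 on the plus strand and IGFBP5 (ENSG00000115461) spans 217536828 to 217560272 on the minus strand, so their 3' ends face each other across 7668 bases. These neighbours differed in pattern. IGFBP5, a binding protein that attaches to extracellular matrix, was at 103.1 RPKM with sgRNA-AP1-69, 80.8 RPKM with sgRNA-AP1-71 and, with sgRNA-FOXF1, 266.1 RPKM, against 82.0 RPKM with sgRNA-NT. Only the sgRNA-FOXF1 library stood apart, 3.25-fold above sgRNA-NT (log2 ratio 1.70) and 62 from the highest of all genes compared. The enhancer guides, with log2 ratios of 0.33 and -0.02, were within the spread. Against the mean of both guides IGFBP5 was 2.92-fold higher with sgRNA-FOXF1. The genes nearest to IGFBP5 in their ratios were PTGS1, which encodes cyclooxygenase 1 (distance 0.0944; 33.0, 25 and 78.1 RPKM in the targeted libraries, against 24.9 RPKM with sgRNA-NT), the heparan sulfate proteoglycan gene SDC1 (distance 0.519) and MDK, which encodes the growth factor midkine (distance 0.554).

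IGFBP6 (ENSG00000167779), which binds IGF2 in preference to IGF1, resembled IGFBP5. It was at 141.1 RPKM with sgRNA-AP1-69, 124.9 RPKM with sgRNA-AP1-71 and, with sgRNA-FOXF1, 248.3 RPKM, against 110.1 RPKM with sgRNA-NT. All targeted libraries were above the control, but only sgRNA-FOXF1 by more than 2-fold (2.26-fold, log2 ratio 1.17). The ratios with the guides were 0.36 and 0.18, within the spread. After subtraction of the length trend the ratios were 0.00, -0.22 and 0.82 in the targeted libraries, so the direction with sgRNA-AP1-71 turned and the difference with sgRNA-FOXF1 was under 2-fold. IGFBP4 was lower with both guides (-0.25 and -0.39) and higher with sgRNA-FOXF1 (0.38), and none of these ratios exceeded the spread between the guides at its level.

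IGFBP3 (ENSG00000146674), the main carrier of IGF in blood, was lowest with sgRNA-FOXF1. It was at 5.4 RPKM with sgRNA-AP1-69, 6.1 RPKM with sgRNA-AP1-71 and, with sgRNA-FOXF1, 3.0 RPKM, against 8.3 RPKM with sgRNA-NT. That library was 2.77-fold below sgRNA-NT (log2 ratio -1.47) and 1.91-fold below the mean of the guides. Ratios with the guides were -0.62 and -0.44, just beyond and within the spread at this level. The genes nearest to IGFBP3 were FKBP14, a prolyl isomerase of the endoplasmic reticulum (distance 0.138), CCBE1 (0.188) and GNAI1 (0.19). PAPPA (ENSG00000182752) was at 5.2 RPKM with sgRNA-AP1-69, 3.1 RPKM with sgRNA-AP1-71 and, with sgRNA-FOXF1, 5.6 RPKM, against 7.6 RPKM with sgRNA-NT. Its value with sgRNA-AP1-71 stood apart (log2 ratio -1.29), while the other ratios were -0.55 and -0.44. After subtraction of the length trend they were -0.01, -0.62 and 0.17 in the targeted libraries, so that PAPPA was past 2-fold in none and its direction with sgRNA-FOXF1 turned. The guides themselves differed by 0.75 on the log2 scale, more than in 95% of genes at this level. At 1.5-fold, PAPPA alone of the 8 was lower with sgRNA-AP1-71 than under the other guide, beside 2.84% of all genes. The mean over the guides (-0.92, SD 0.53, n = 2 guides) therefore averages 2 unlike ratios. Beyond 2-fold, PAPPA was thus lower with 1 guide only.

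The summed level of the IGFBPs did not differ from sgRNA-NT by more than the spread between the guides. Levels of IGFBP2 to IGFBP7 summed to 1306.6 RPKM with sgRNA-AP1-69, 1162.9 RPKM with sgRNA-AP1-71 and, with sgRNA-FOXF1, 2118.3 RPKM, against 1661.8 RPKM with sgRNA-NT, or 0.786, 0.7 and 1.27 times the control. The log2 ratios of these sums were -0.35, -0.52 and 0.35, within the limit of 0.64 for levels over 100 RPKM. That limit comes from single genes, and the spread of a sum was not measured. IGFBP4 made up most of each sum, with shares of 68.9%, 70.4% and 65.9% in the targeted libraries and 64.6% with sgRNA-NT. The share of IGFBP7 was 11.6%, 11.1% and 8.98% in the targeted libraries, against 22.6% with sgRNA-NT. IGFBP5 and IGFBP6 took larger shares in each targeted library: IGFBP5 had 7.89%, 6.95% and 12.6%, against 4.93% with sgRNA-NT, and IGFBP6 had 10.8%, 10.7% and 11.7%, against 6.63%. Shares add up to a whole, so a lower IGFBP7 raises those of the other genes. With sgRNA-AP1-71 the level of IGFBP5 was not higher, at 80.8 RPKM against 82.0 RPKM with sgRNA-NT. IGFBP2 and IGFBP3 were minor in every sum, at most 0.716% and 0.525%. Within a library, IGFBP5 was 0.681, 0.628 and 1.4 times IGFBP7 in the targeted libraries, and 0.218 times with sgRNA-NT. This ratio is taken inside each library, so a scaling factor of the library cancels, although quantile normalization can still alter it.

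**Figure D3:**
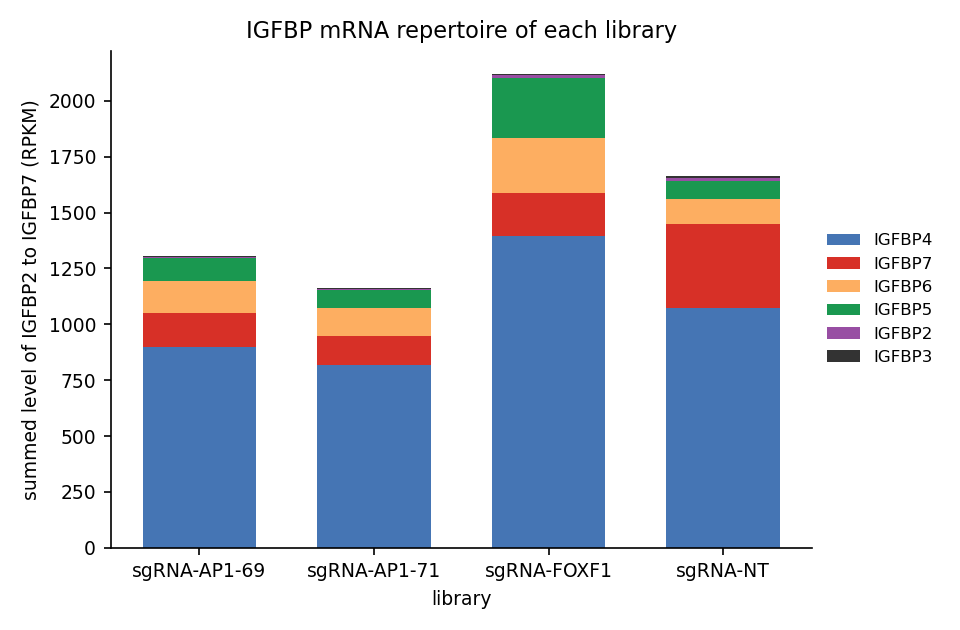
Summed level of IGFBP2 to IGFBP7 (RPKM) in each of the 4 libraries, 1 bar a library, split by gene. IGFBP4 fills most of every bar, and the IGFBP7 segment is at most 190.3 RPKM in the targeted libraries, against 376.2 RPKM with sgRNA-NT.

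Sequences before the start sites are shown because the libraries differ in FOXF1, a forkhead factor, and in an AP-1 site. RefSeq promoters (250 bases before the start of transcription) were matched for 8 of the 10 genes, with 10 entries since IGFBP2 has 3 start sites; IGFBP7 and IGF2 had no entry. They were searched on both strands for the forkhead core GTAAACA, the AP-1 site as TGACTCA or TGAGTCA, and the GC box GGGCGG, and on the plus strand of the gene for TATAAA. The forkhead core was found in 2 of the 10 entries, those of IGFBP6 (first base at -186) and PAPPA (-137), and in 2.98% of 35116 promoters overall. No entry held the AP-1 site, which 4.2% of all promoters hold. The GC box stood in 42.6% and TATAAA in 6.8% of all promoters. Below, bases in capitals are matches to any of these motifs, and IGFBP5 and IGF2R are shown beside the 2 genes with a forkhead core as the genes with the largest rise with sgRNA-FOXF1 and with a fall in every targeted library.
IGFBP6 (chr12:53491201-53491450, GRCh37, plus strand): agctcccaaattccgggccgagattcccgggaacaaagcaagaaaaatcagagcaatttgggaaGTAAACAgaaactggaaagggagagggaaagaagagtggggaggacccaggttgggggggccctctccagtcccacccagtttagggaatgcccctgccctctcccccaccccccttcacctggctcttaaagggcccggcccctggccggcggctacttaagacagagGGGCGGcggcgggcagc
PAPPA (chr9:118915820-118916069, GRCh37, plus strand): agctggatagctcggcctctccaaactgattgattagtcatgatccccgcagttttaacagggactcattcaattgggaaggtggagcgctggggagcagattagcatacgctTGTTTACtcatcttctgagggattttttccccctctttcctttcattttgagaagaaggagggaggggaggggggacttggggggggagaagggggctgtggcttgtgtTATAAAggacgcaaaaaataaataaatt
IGFBP5 (chr2:217560273-217560522, GRCh37, minus strand): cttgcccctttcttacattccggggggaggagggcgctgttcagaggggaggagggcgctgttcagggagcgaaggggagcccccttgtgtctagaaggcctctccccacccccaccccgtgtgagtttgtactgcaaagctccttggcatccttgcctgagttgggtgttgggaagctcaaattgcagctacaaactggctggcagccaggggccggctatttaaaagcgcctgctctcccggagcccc
IGF2R (chr6:160389864-160390113, GRCh37, plus strand): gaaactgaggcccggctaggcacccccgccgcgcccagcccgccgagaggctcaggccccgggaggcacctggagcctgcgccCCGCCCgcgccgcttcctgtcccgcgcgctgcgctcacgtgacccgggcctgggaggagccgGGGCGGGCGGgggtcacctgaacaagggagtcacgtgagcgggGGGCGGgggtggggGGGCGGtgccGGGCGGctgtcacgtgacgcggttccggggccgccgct
IGFBP5 holds none of the motifs, whereas IGF2R holds 6 GC boxes, 2 of them overlapping, in a stretch of 79.2% G and C. IGFBP6, higher with sgRNA-FOXF1, and PAPPA, which was not called with sgRNA-FOXF1, thus both hold the core. The IGFBP6 window runs past the gene start in GENCODE (53491220), since RefSeq places the start further downstream. A match is no evidence that a factor binds there.

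Transcript length and GC content moved with the ratios and are given beside them. Over 7566 genes with a known transcript, log2 ratios to sgRNA-NT were lower for longer transcripts, with Spearman correlations of -0.50, -0.44 and -0.45 in the targeted libraries. Genes are not independent replicates, and these correlations are a description of the libraries. The 1513 genes with the longest transcripts, of 5032 bases or more, had medians of -0.29, -0.31 and -0.35. IGF2R (14061 bases) and PAPPA (10971 bases) are among them, as is IGFBP5 (6239 bases), which was higher with sgRNA-FOXF1. The 1515 genes with the shortest, of at most 1598 bases, had medians of 0.33, 0.39 and 0.31. IGFBP7 (1427 bases) and IGFBP2 (1414 bases) belong to these and were lower with both guides, while IGFBP6 (947 bases) was higher with sgRNA-FOXF1.

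After subtraction of a smooth trend with length, IGFBP7 had log2 ratios of -1.58, -1.86 and -1.26 in the targeted libraries, IGFBP2 had -1.55, -1.85 and 0.00, and IGFBP3 had -1.56 with sgRNA-FOXF1. IGFBP5 with sgRNA-FOXF1 then had 2.03. The ratios called before the length correction were larger after it in these 4 genes, IGFBP7 was past 2-fold in all 3 targeted libraries, and the ratio of IGFBP2 with sgRNA-FOXF1 was closer to 0. With GC content corrected as well, IGFBP2 had -1.27 and -1.39 with the guides, no longer larger than the uncorrected -1.28 and -1.54. The called ratios of IGFBP7, IGFBP3 and IGFBP5 stayed larger than the uncorrected ones. The calls of IGF2R, PAPPA and IGFBP6, given above with both values, rest on ratios not corrected for length. The difference of sgRNA-FOXF1 from the mean of the guides had a Spearman correlation of 0.60 with GC content and of -0.02 with length. IGFBP2 (67.4% GC), IGFBP6 (64.7%) and IGFBP4 (62.6%) are rich in GC, while IGFBP5 (51.9%) is not. After subtraction of trends with length and GC content, a step added after the data were seen, this difference was 1.32 for IGFBP2 (1.69 before), 1.49 for IGFBP5 (1.54 before), 0.63 for IGFBP6 (0.90 before), 0.41 for IGFBP4 (0.70 before), which was then under 1.5-fold, and -0.94 for IGFBP3 (-0.94 before).

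**Figure D4:**
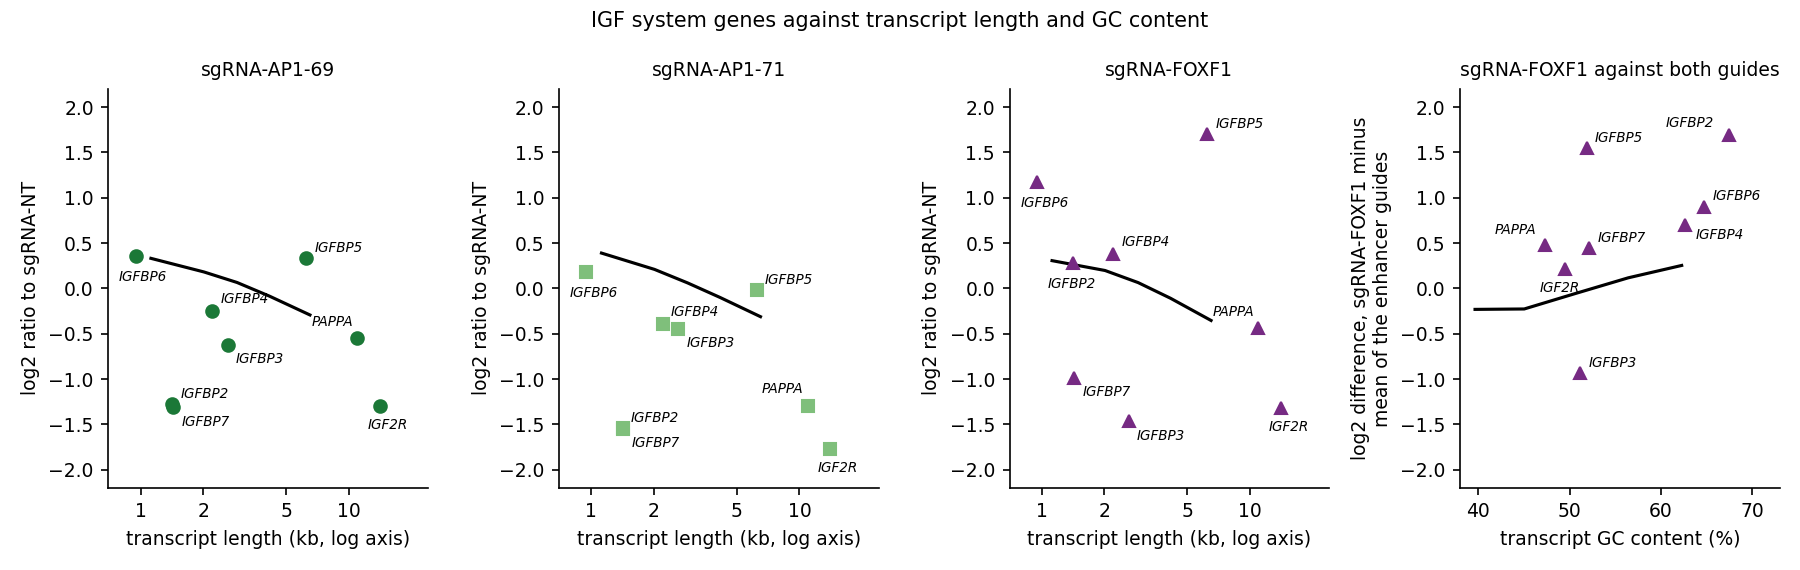
Log2 ratio to sgRNA-NT of the 8 genes compared against transcript length (kb, log axis) in the 3 targeted libraries, and log2 difference of sgRNA-FOXF1 from the mean of the enhancer guides against transcript GC content (%). Black lines join the medians of all genes compared in 5 equal groups; IGFBP7 and IGFBP2 lie below the line with both guides, and IGFBP5 lies above it with sgRNA-FOXF1.

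Of 76 further genes of the pathway on 5 lists, 64 were analysed and 45 compared. In the targeted libraries 6, 8 and 8 of the 45 were at least 2-fold lower, shares to be read against 3.3%, 6.38% and 4.96% of all genes. At least 2-fold higher were 0 of the 45 in any library, beside only 1.34%, 3.8% and 3.2% of all genes. Their median log2 ratios were -0.37, -0.39 and -0.24, and -0.15, -0.20 and -0.06 after subtraction of the length trend. The genes called lower were on the protease and receptor-related lists, apart from PTPN11. Of 10 genes for such proteases and for inhibitors of PAPP-A, 4 were lower with each of the targeted vectors, but not the same 4. Beside MMP3 and ADAM9, they were STC1 and MMP1 with sgRNA-AP1-69 and ADAMTS1 and CTSD with sgRNA-AP1-71. With sgRNA-FOXF1 they were ADAMTS1 and STC2. MMP1, at which the guides disagreed, had log2 ratios of -1.26, 0.05 and -0.96. MMP1 and CTSD are named after their values were seen. The medians of the 10 genes were -0.59, -0.77 and -0.95.

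MMP3, which encodes stromelysin 1, was at 59.5, 50.0 and 34.2 RPKM in the targeted libraries, against 146.6 RPKM with sgRNA-NT. ADAM9, a membrane-bound protease, was at 15.8, 10.6 and 11.1 RPKM, against 34.8 RPKM with sgRNA-NT. Both were at least 2-fold lower in all 3 targeted libraries. ADAMTS1, a secreted metalloproteinase, had log2 ratios of -0.38, -1.38 and -1.17 in the targeted libraries. STC1, whose product stanniocalcin 1 inhibits PAPP-A, was at 197.4, 356.8 and 234.4 RPKM, against 446.4 RPKM with sgRNA-NT, with more than a 1.5-fold difference between the guides. Its relative STC2 (71.9, 82.6 and 42.1 RPKM, against 99.7 RPKM) and HTRA1, a serine protease that cuts IGFBP5 (54.3, 44.3 and 126.2 RPKM, against 66.2 RPKM), were singled out after their values were seen. HTRA1 and IGFBP5 were thus both highest with sgRNA-FOXF1.

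Among 9 receptor-related genes, LRP1, a large endocytic receptor, was at 12.6, 6.9 and 18.5 RPKM in the targeted libraries, against 44.6 RPKM with sgRNA-NT, and ITGB1, the integrin beta 1 chain, was at 120.6, 96.1 and 113.6 RPKM, against 283.1 RPKM. Both were at least 2-fold lower in all 3 libraries, as was IGF2R. These calls rest on ratios not corrected for transcript length. With that correction IGF2R had -0.66, -0.93 and -0.61 and was past 2-fold in no library. FURIN, the convertase that matures the IGF1R precursor, had log2 ratios of -0.76, -1.28 and -0.29, and GIGYF2, a partner of the adaptor GRB10, had -0.77, -0.70 and -1.18. The levels of GIGYF2 were close to the floor, at 2.0, 2.1 and 1.5 RPKM, against 3.4 RPKM with sgRNA-NT. M6PR, the smaller mannose 6-phosphate receptor, chosen with its values known, was at 47.9, 50.5 and 45.1 RPKM, against 38.5 RPKM with sgRNA-NT, the opposite direction to IGF2R and under 1.5-fold.

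Downstream of IGF1R, 22 adaptor and PI3K-AKT genes had median log2 ratios of 0.02, -0.02 and -0.03. With sgRNA-AP1-71 and sgRNA-FOXF1, 1 of the 22 was at least 2-fold lower, beside 6.38% and 4.96% of all genes. That gene was PTPN11, which encodes the phosphatase SHP2, with ratios of -0.86, -1.05 and -1.44. IRS1, the docking protein of insulin and IGF receptors, had ratios of -0.48, -0.73 and -0.97. PDPK1, the kinase that activates AKT, had -0.40, -0.66 and -0.94, and MTOR, the kinase of growth control, had -0.53, -0.62 and -0.80. The ratios of these genes were not corrected for transcript length. Of 4 genes that bind IGF2 mRNA or share its control, HMGA2 had ratios of -0.21, -0.43 and -0.96 and IGF2BP2 -0.40, -0.29 and -0.55. CTCF had -0.27, -0.11 and -0.27, and IGF2BP1 had -0.11, -0.18 and -0.15. In the targeted libraries 0 of the 4 were at least 2-fold lower, beside 3.3%, 6.38% and 4.96% of all genes. At least 2-fold higher were 0 of the 4, beside 1.34%, 3.8% and 3.2%. KAZALD1, which encodes an IGFBP-related protein, had 1.0, 1.0 and 1.2 RPKM in the targeted libraries, against 1.0 RPKM with sgRNA-NT, all close to the floor.

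**Figure D5:**
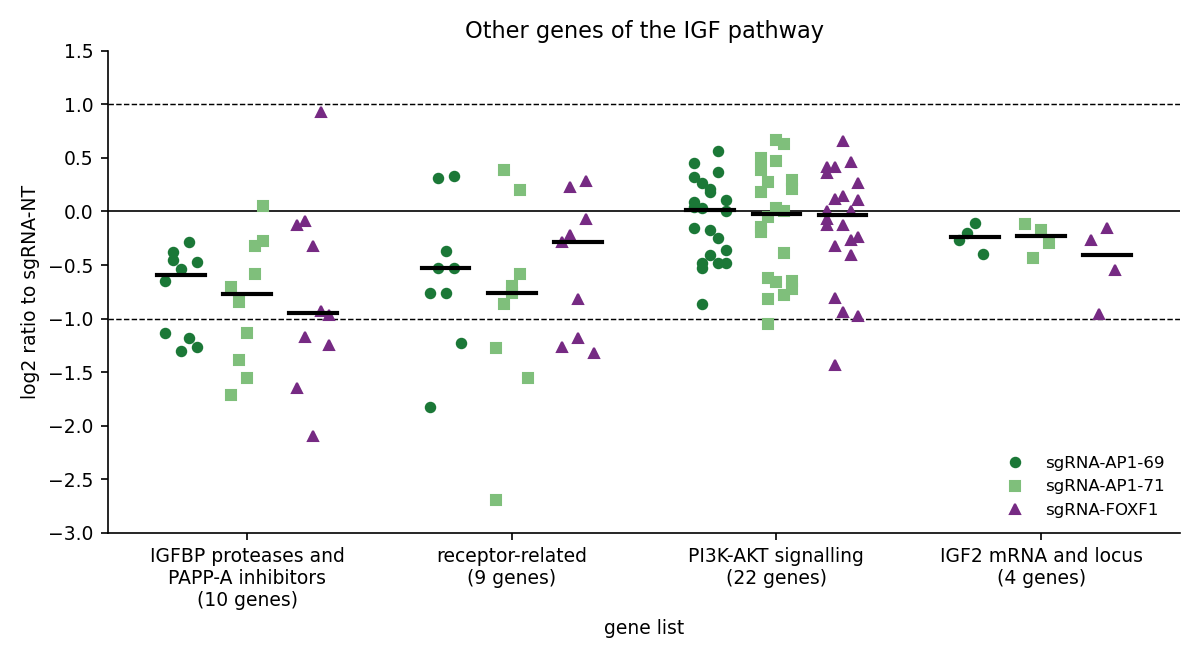
Log2 ratio to sgRNA-NT of the 45 further pathway genes compared, by list, with 1 point for each gene and targeted library and a black bar at each median. The dashed lines mark a 2-fold difference; the 22 signalling genes centre on 0, and the protease list has medians of -0.59, -0.77 and -0.95.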

How the data were processed

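RNA-seq of 4 libraries, 1 for each of sgRNA-AP1-69, sgRNA-AP1-71, sgRNA-FOXF1 and sgRNA-NT, was used. The authors aligned reads to hg19 (TopHat2), counted them per gene (HTSeq-count) and expressed the counts as RPKM using the GENCODE v25 annotation. The deposited RPKM values were quantile-normalized by the authors, who also set low values to 1. Equal values stood at 72.5% of ranks over the 4 libraries. For both tools the version is not given. The deposited log2 columns hold the authors' own ratios to sgRNA-NT and were not used. Quantile normalization forces equal distributions, so a shift of most genes cannot be seen.

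Ratios were computed from RPKM without a pseudocount for genes averaging 2 RPKM or more. No test was made with 1 library a condition. Transcript length, GC content and coordinates are those of canonical transcripts of GENCODE v44 lifted to GRCh37, the build of hg19, with a length for 99.6% of genes compared. Trends were cubic splines with 5 knots. The ratio, the 2-fold rule and the trend were tested on simulated data. Promoters are from RefSeq and were placed on GRCh37 by exact match. The genes and lists were chosen with earlier results of these data known. Named genes are the 10 genes, FOXF1, HRAS and CDKN1A, of each pathway list every gene past 2-fold in all 3 targeted libraries, filled up to 4 genes compared by the size of their log2 ratios averaged without sign, and the 3 nearest genes to IGFBP3, IGFBP5 and IGFBP7. Alternatives were a pseudocount of 1 RPKM, centred ratios, other filters, a 1.5-fold rule, each guide alone and corrections for length or, added later, length and GC content. Python 3.11.15, numpy 2.4.6, pandas 2.3.3, scipy 1.17.1, scikit-learn 1.9.0 and matplotlib 3.10.9 were used.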

Additional observations from a re-analysis of the deposited data

Results flagged for a closer look

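IGFBP2 and IGFBP4 had log2 ratios of opposite sign with the enhancer guides and with sgRNA-FOXF1, each relative to sgRNA-NT. IGFBP2 had log2 ratios of -1.28 and -1.54 with both enhancer guides (sgRNA-AP1-69, then sgRNA-AP1-71) and of 0.29 with sgRNA-FOXF1. IGFBP4 had log2 ratios of -0.25, -0.39 and 0.38 in the same libraries. The ratio of IGFBP2 with sgRNA-FOXF1 and every ratio of IGFBP4 lay within the spread between the guides. That of IGFBP2 with sgRNA-FOXF1 was 0.00 after correction for transcript length and -0.01 after correction for length and GC content, which turned its sign. The difference between the targets was not tested, since each condition has 1 library. Such a pattern of signs was seen in 2 of the 8 genes compared and in 13.0% of all genes compared.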

How the results depend on the processing

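No paired analysis was possible because each condition has 1 library. With every gene in the table, which adds IGF2 and IGF1R, the median log2 ratio of the IGF system genes with sgRNA-FOXF1 was -0.35 in place of -0.08. After correction for transcript length, 2 genes in place of 4 were at least 2-fold lower with sgRNA-AP1-71, 1 in place of 2 was higher with sgRNA-FOXF1, and the median with sgRNA-AP1-71 was -0.57 in place of -0.87. After correction for length and GC content these were 2, 1 and -0.63. A pseudocount, centring, a mean of at least 5 RPKM and a 1.5-fold rule left every count of genes called within 1.5 times its main value. No ratio past 2-fold changed sign under any alternative. Among smaller values, correction for length turned IGFBP5 with sgRNA-AP1-71 to 0.30, IGFBP6 with sgRNA-AP1-71 to -0.22, PAPPA with sgRNA-FOXF1 to 0.17 and the median with sgRNA-FOXF1 to 0.08. Correction for length and GC content turned IGFBP2 with sgRNA-FOXF1 to -0.01, IGFBP5 with sgRNA-AP1-71 to 0.29, PAPPA with sgRNA-FOXF1 to 0.19 and the median with sgRNA-FOXF1 to 0.05. The difference of sgRNA-FOXF1 from the guides for IGF2R was -0.02 against sgRNA-AP1-69 alone, in place of 0.21. Depth is unknown, and values near the floor of 1 RPKM cannot show a fall.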

Other observations

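Of the 22 genes of the growth pathway below IGF1R that were compared, 10, 11 and 11 had log2 ratios below 0 in the targeted libraries. Over all 7596 genes compared, 3232, 3282 and 3370 did. The medians of the 22 genes were 0.02, -0.02 and -0.03, so the list as a whole had no common direction. IRS1, PTPN11, PDPK1, MTOR, TSC2, RPTOR, EIF4EBP2 and INPPL1 had ratios below 0 in all 3, as did 29.2% of all genes compared. AKT2, MLST8, RHEB and FOXO4 had ratios above 0 in all 3, as did the following genes, chosen after their values were seen. None of the genes above 0 in all 3 was past 2-fold. The ratios of single genes here were not corrected for transcript length, and shorter transcripts had higher ratios in these libraries. EIF4EBP1, a repressor of translation that mTOR inactivates, was at 48.1 RPKM with sgRNA-AP1-69, 65.9 RPKM with sgRNA-AP1-71 and, with sgRNA-FOXF1, 65.6 RPKM, against 41.5 RPKM with sgRNA-NT. RPS6KB2, an S6 kinase, was at 18.5, 19.3 and 17.2 RPKM, against 12.5 RPKM with sgRNA-NT. The kinase gene AKT1 was at 29.1, 32.9 and 29.8 RPKM, against 23.3 RPKM with sgRNA-NT.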
